A study of Mus musculus with 6 samples.

Results

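The 34 genes described here serve protein folding in the endoplasmic reticulum (ER) and the unfolded protein response, the signalling that adjusts the folding capacity of this organelle. They were chosen by function as named genes: 8 Hsp70 and Hsp90 chaperones of the ER lumen with their cochaperones, 2 lectin chaperones, 6 disulfide isomerases, 3 disulfide oxidases and peroxidases, 7 genes of ER-associated degradation, 4 genes of translocation and ER exit, and 4 sensors and transcription factors. All 34 were found among the 57508 genes of the expression tables, and all 34 passed the filter on low counts. The samples were 3 libraries of KPC1199 cells with ACSL5 knockdown (names beginning siACSL5_2260) and 3 libraries of KPC1199 cells labelled WT (names beginning siACSL5_CY3). KPC1199 is a mouse line that the labels call pancreatic tumour cells, and both groups carry a name of the siACSL5 series, the meaning of which is not explained. The knockdown libraries are titled KO, although knockdown is given as their genotype, and the labels do not state the time after treatment or whether the libraries came from separate cultures. The series design names the role of ACSL5 in pancreatic ductal adenocarcinoma as the question behind the comparison.

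Proteins that enter the secretory pathway pass through the Sec61 channel, fold with the help of BiP, calreticulin and calnexin, and gain disulfide bonds from isomerases that Ero1 oxidases keep oxidised. Chains that fail to fold are drawn back to the cytosol and degraded by the proteasome. When unfolded chains accumulate, IRE1 splices the Xbp1 transcript, ATF6 is cut to an active factor, and PERK slows translation. Spliced XBP1 and cut ATF6 bind short promoter sequences known as the ER stress response element (ERSE), its variant ERSE-II and the unfolded protein response element (UPRE), and induce many of the genes described here. Pancreatic tissue is known for its heavy secretory load.

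These promoter sequences are shown first, because they are the published link between the sensors and the chaperone genes. ERSE was searched as CCAAT and CCACG separated by 9 bases, on both strands, in the window from 250 bases before to 50 bases after each start site in the RefSeq promoter table (GRCm38.p6). ERSE was found in 39 of 32851 promoter windows (0.119%), and in 10 of the 29 ER genes that the table holds. The remaining genes are Sec61a1, Atf6, Derl1, Manf and Hyou1. The matches are printed 5′ to 3′ on the strand that reads CCAAT before CCACG, with both motif parts in capitals and 3 flanking bases on either side. Hsp90b1 held 2 matches.
Hspa5: tcaCCAATcggaggcctCCACGacg (chr2:34772022-34772046, plus strand)
Hsp90b1, upstream match: agcCCAATcgcaaggagCCACGctt (chr10:86705635-86705659, minus strand)
Hsp90b1, downstream match: tcaCCAATcgtgcctcaCCACGcac (chr10:86705530-86705554, plus strand)
Dnajc3: caaCCAATcagcgccaaCCACGacc (chr14:118937824-118937848, plus strand)
Calr: gggCCAATgagggtcgaCCACGcgt (chr8:84847072-84847096, plus strand)
Canx: tgaCCAATcaccacgctCCACGaag (chr11:50325797-50325821, minus strand)
Pdia6: agaCCAATgaaaggcggCCACGgcg (chr12:17266488-17266512, plus strand)
Creld2: ggaCCAATtgaggctcgCCACGaga (chr15:88819517-88819541, minus strand)
Ero1b: cggCCAATgaggcgggaCCACGagg (chr13:12565679-12565703, minus strand)
Syvn1: caaCCAATcggcggtagCCACGgga (chr19:6046529-6046553, plus strand)
Derl3: tagCCAATggggaagtcCCACGgta (chr10:75893239-75893263, minus strand)
The matches lay between 44 bases (Syvn1) and 212 bases (Hsp90b1) before the RefSeq start site. In Hspa5, Dnajc3, Canx, Pdia6 and Syvn1, and in the upstream match of Hsp90b1, CCAAT came first in the direction of the gene. In Calr, Creld2, Derl3 and Ero1b and in the downstream match of Hsp90b1 the element was turned round.

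ERSE-II was searched as ATTGG and CCACG with 1 base of any kind between them, and the UPRE core as TGACGTGG, both on either strand. ERSE-II was found in 12 promoter windows (0.0365%), those of Herpud1 and Dnajb11 among them, and the UPRE core in 222 (0.676%), including those of Sec24d and Txndc5. The sites of Herpud1 and of the genes with a UPRE core are printed with 3 flanking bases and the motif in capitals.
Herpud1, ERSE-II: ctgATTGGgCCACGttg (chr8:94386374-94386390, plus strand)
Sec24d, UPRE core: gccTGACGTGGcac (chr3:123267467-123267480, plus strand)
Txndc5, UPRE core: cgcTGACGTGGcgc (chr13:38528042-38528055, minus strand)
A match is a run of letters and not a measured binding site.

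Library totals lay between 23095358 and 26047515 expected counts in the knockdown group, and between 21794244 and 29996194 in WT. WT replicate 1 stood apart: its correlation with the other libraries was between 0.92 and 0.935, while the other 5 correlated with each other at between 0.981 and 0.997 (log2 values, 10 pairs). Ribosomal protein genes took 9.79% of its counts, against between 3.72% and 4.39% in the other 5. Short transcripts were higher in it and long ones lower, with a median log2 difference from the mean of the other 5 of 0.91 in the shortest 10% of genes and -0.9 in the longest 10%. The fold changes of the 34 genes are therefore given with and without it. Acsl5, the targeted gene, had 49.7, 55.6 and 57.2 CPM (counts scaled to a common library size, with TMM factors) in knockdown replicates 1, 2 and 3, against 341.9, 265.0 and 269.9 CPM in WT replicates 1, 2 and 3. Knockdown cells held 20.2% of the mean of WT replicates 2 and 3. All 6 markers of pancreatic tumour epithelium were present, at a summed 7214.7 to 7391.1 CPM in knockdown and 6968.3 to 13139.3 CPM in WT libraries. Of 10 acinar markers, Prss1, Cpb1, Cela2a, Pnlip and Ctrb1 were at 0 in all libraries, and the list summed to between 7.72 and 9.4 CPM in knockdown and 4.65 and 6.16 CPM in WT replicates 2 and 3 and 13.6 CPM in WT replicate 1, most of it Cela1. The 6 fibroblast markers summed to between 273.7 and 290.0 CPM in knockdown, 356.6 and 345.2 CPM in WT replicates 2 and 3 and 218.0 CPM in WT replicate 1, with Col3a1 the most abundant and Lum at 0 in all libraries. Against WT replicates 2 and 3, the fibroblast sum was thus lower and the acinar sum higher in every knockdown library, but single markers differed. The fibroblast marker Dpt was higher, at 2.14, 2.54 and 2.54 CPM in knockdown against 1.15 and 0.908 CPM. The acinar marker Prss2 overlapped, at 0.629, 0.442 and 0.958 CPM against 0.886 and 0.778 CPM. The part of either list in the results below was not tested. The 7 macrophage markers summed to at most 5.42 CPM and the 5 endothelial markers to at most 0.273 CPM in any library. The libraries are of a cell line, so the level of a marker does not show that cells of that type were present. In such bulk samples, fewer cells of a type and less RNA per cell cannot be told apart.

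The ER genes did not move as a block. Against WT replicates 2 and 3, 17 of the 34 genes changed in knockdown cells, 8 of them upward and 9 downward, at an adjusted p below 0.05 in edgeR's quasi-likelihood test (Benjamini-Hochberg over 15152 genes). In the same comparison 34.3% of all genes tested were called, 16.3% higher and 18.0% lower. At a mean level of 10 CPM or more the share of genes called was 45.0%, and 16 of the 33 ER genes at that level were called. The median log2 fold change (knockdown minus WT) was 0.00 over the 34 genes and -0.01 over all genes tested. The higher genes were Hspa5, Pdia4, Creld2, Herpud1, Syvn1, Derl3, Sec61b and Atf6b. The lower genes were Dnajc3, Calr, Txndc5, Ero1a, Ero1b, Edem1, Sec63, Atf6 and Xbp1. Only Ero1a and Derl3 changed by more than 1 log2 unit, and the 17 genes that were not called lay between -0.16 and 0.64. The summed level of the 34 genes was 10603.1, 10512.1 and 10352.4 CPM in knockdown replicates 1, 2 and 3, against 14106.0, 10482.0 and 10553.6 CPM in WT replicates 1, 2 and 3.

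With WT replicate 1 included, edgeR called none of the 34 genes and 0% of the 14679 genes tested, while 9 of the 34 and 2351 of all genes had an unadjusted p below 0.05. DESeq2 called 8 of the 34 genes over the 6 libraries, 3 higher and 5 lower, and 7.68% of all genes. With a quality weight per library in limma-voom, chosen after the data were seen, 8 of the 34 genes were higher and 8 lower over the 6 libraries, against 20.5% higher and 19.9% lower among all genes. These 16 calls had the direction found without WT replicate 1, and that library was given a weight of 0.0312, against between 0.964 and 2.53 for the others. In CPM, 4 of the 34 genes were higher in each knockdown library than in any of the 3 WT libraries (18.7% of all genes) and 7 were lower (15.6% of all genes). The higher ones were Pdia4, Syvn1, Derl3 and Atf6b. The lower ones were Calr, Txndc5, Ero1a, Ero1b, Edem1, Sec63 and Xbp1. In TPM (the share of transcripts after correction for length), 10 of the 34 genes were higher in each knockdown library than in any WT library (25.6% of all genes) and 4 were lower (5.61% of all genes). Of the 11 genes apart in CPM, 8 were apart in TPM, and Txndc5, Ero1b and Edem1 overlapped. Hsp90b1, Dnajb9, Canx, Pdia3, Pdia6 and Herpud1 were higher in TPM and overlapped in CPM.

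**Figure D1:**
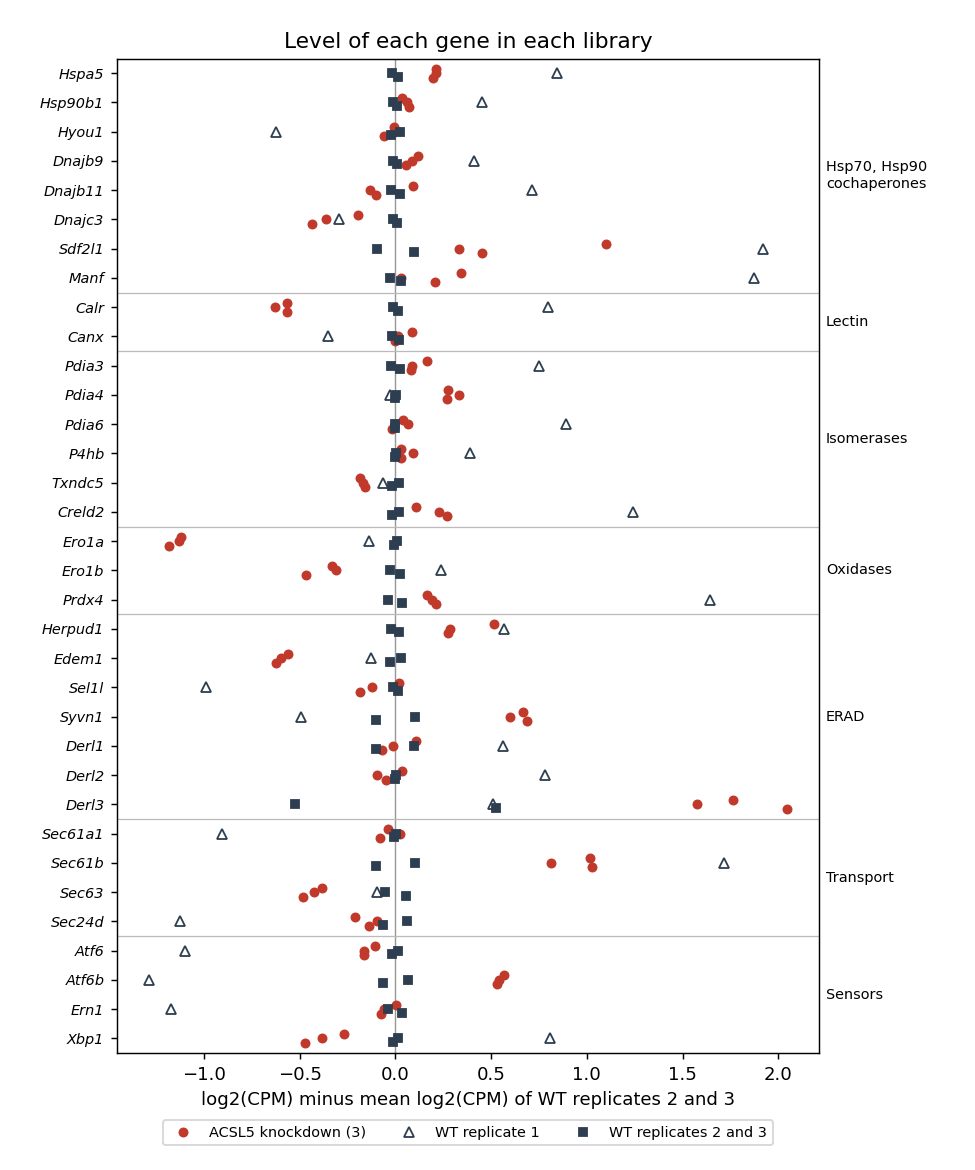
Level of each of the 34 ER genes in each library, as log2(CPM) minus the mean log2(CPM) of WT replicates 2 and 3 (horizontal axis), in order of role. Circles are the 3 ACSL5 knockdown libraries, triangles WT replicate 1 and squares WT replicates 2 and 3; Ero1a, Edem1 and Calr lie left of all WT libraries, Syvn1 and Derl3 right of them, and the triangle is often far from the squares.

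Ero1a showed the largest fall of the 34 genes. It encodes an oxidase that passes electrons from protein disulfide isomerase to oxygen, and it is known to be induced by low oxygen. Ero1a (ENSMUSG00000021831; chr14:45283087-45318771 of GRCm38, minus strand) had 82.2, 81.6 and 78.8 CPM in knockdown replicates 1, 2 and 3, against 162.2, 179.3 and 177.5 CPM in WT replicates 1, 2 and 3. Every knockdown library was below every WT library, and knockdown cells held 45.3% of the mean of WT replicates 2 and 3. The log2 fold change was -1.16 (SE 0.046, edgeR adjusted p = 4.54e-07) without WT replicate 1 and -1.10 (SE 0.123, adjusted p = 0.0878) over the 6 libraries. In TPM, Ero1a had 43.8, 41.1 and 44.8 in knockdown replicates 1, 2 and 3, against 49.2, 83.2 and 75.0 in WT replicates 1, 2 and 3. The groups did not overlap on this scale either, with WT replicate 1 close to the knockdown libraries.

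Its paralog Ero1b, which is known for its high level in endocrine pancreas, fell less and was expressed at a lower level. Ero1b had 17.6, 17.8 and 16.0 CPM in knockdown replicates 1, 2 and 3, against 26.1, 21.7 and 22.5 CPM in WT replicates 1, 2 and 3. This was a log2 fold change of -0.38 (SE 0.0889, edgeR adjusted p = 0.00716) without WT replicate 1 and -0.45 (adjusted p = 0.212) over the 6 libraries. The call of Ero1b was lost on both TPM scales. With WT replicate 3 also left out, 1 WT library remained, and Ero1b was at -0.36. Prdx4, a peroxidase of the ER that consumes the hydrogen peroxide made by Ero1 enzymes, was not called. It had 35.7, 36.3 and 36.9 CPM in knockdown libraries, against 99.1, 31.0 and 32.6 CPM in WT replicates 1, 2 and 3, so that the knockdown libraries lay between the WT ones. Its log2 fold change was 0.17 (edgeR adjusted p = 0.0734) without WT replicate 1 and -0.58 over the 6 libraries. Without WT replicate 1, Prdx4 was called higher in some other settings, at 0.21 with library totals and 0.24 with the GC trend removed. With DESeq2 it was not called, at 0.18.

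Calreticulin and calnexin, the paired lectin chaperones that hold glycoproteins during folding, differed in their values. Calr, the soluble one, had 689.7, 659.4 and 689.5 CPM in knockdown replicates 1, 2 and 3, against 1769.6, 1009.6 and 1028.5 CPM in WT replicates 1, 2 and 3. All knockdown libraries were below all WT libraries, and the knockdown mean was 66.7% of the mean of WT replicates 2 and 3. The log2 fold change of Calr (chr8:84841850-84846934 of GRCm38, minus strand) was -0.60 (SE 0.0416, edgeR adjusted p = 7.76e-06) without WT replicate 1 and -0.90 (adjusted p = 0.202) over the 6 libraries. Canx, the membrane-bound one, had 852.7, 811.0 and 802.5 CPM in knockdown libraries, against 630.9, 793.4 and 814.9 CPM in WT replicates 1, 2 and 3. It was not called, at a log2 fold change of 0.02 (edgeR adjusted p = 0.807) without WT replicate 1 and 0.14 over the 6 libraries.

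**Figure D2:**
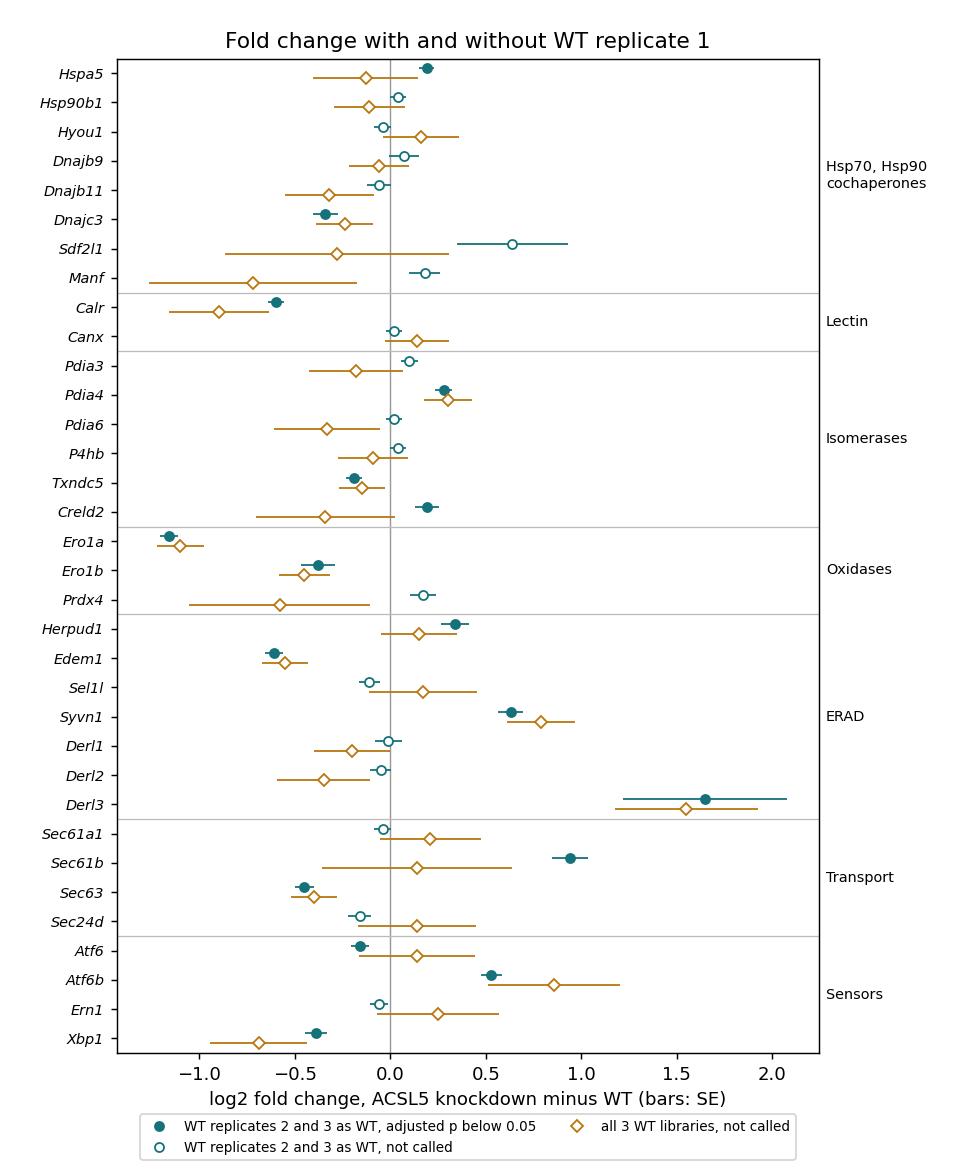
Log2 fold change of each ER gene, ACSL5 knockdown minus WT (horizontal axis), with bars of 1 SE, against WT replicates 2 and 3 (circles, filled where the adjusted p was below 0.05) and against all 3 WT libraries (diamonds). With WT replicates 2 and 3, 8 filled circles lie right of 0 and 9 left of it; the bars of the 6-library fit are wider for most genes, and of the called genes Hspa5, Creld2 and Atf6 lie on opposite sides of 0 in the 2 fits.

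Among the chaperones of the lumen, Hspa5 (BiP), the Hsp70 that binds unfolded chains and keeps the sensors inactive, rose against WT replicates 2 and 3. Hspa5 had 1439.1, 1440.2 and 1426.9 CPM in knockdown replicates 1, 2 and 3, against 2235.2, 1229.3 and 1258.0 CPM in WT replicates 1, 2 and 3. The log2 fold change was 0.19 (SE 0.0396, edgeR adjusted p = 0.00389) without WT replicate 1 and -0.13 (adjusted p = 0.82) over the 6 libraries. With all 6 libraries its value was 0.20 under quality weights, where WT replicate 1 had a weight of 0.0312. On both TPM scales it was 0.10, while the median of all genes was 0.262 on log2(TPM + 1) and 0.304 on log2(TPM + 0.1). Without WT replicate 1, the call of Hspa5 was lost on both TPM scales, at 0.09. With WT replicate 2 or 3 also left out, 1 WT library remained, and Hspa5 was at 0.17 or 0.21. Dnajc3 (p58IPK), a cochaperone of BiP that also restrains PERK, fell. Dnajc3 had 80.8, 72.1 and 68.4 CPM in knockdown libraries, against 75.5, 91.9 and 93.2 CPM in WT replicates 1, 2 and 3. Its knockdown libraries were below WT replicates 2 and 3 and on both sides of WT replicate 1. This was a log2 fold change of -0.34 (SE 0.0642, edgeR adjusted p = 0.00221) without WT replicate 1 and -0.24 (adjusted p = 0.453) over the 6 libraries. With the GC trend of each library removed it was -0.22 without WT replicate 1.

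The other 6 genes of this group were not called. Hsp90b1 (GRP94), the Hsp90 of the ER, had 960.2, 979.1 and 985.1 CPM in knockdown libraries, against 1285.2, 931.1 and 945.5 CPM in WT replicates 1, 2 and 3, a log2 fold change of 0.04 without WT replicate 1 and -0.11 over the 6 libraries. Hyou1, which exchanges the nucleotide of BiP, was at -0.04 without WT replicate 1 and 0.16 over the 6 libraries. The J-domain cochaperones Dnajb9, which is known to bring BiP to IRE1, and Dnajb11, which delivers chains to BiP, were at 0.07 and -0.06 without WT replicate 1, and at -0.06 and -0.32 over the 6 libraries. Sdf2l1, a partner of Dnajb11, had 51.9, 30.5 and 33.2 CPM in knockdown libraries, against 91.8, 22.7 and 25.9 CPM in WT replicates 1, 2 and 3. Each knockdown library was above WT replicates 2 and 3, yet the spread among them was wide, and the log2 fold change of 0.64 had an SE of 0.291 (edgeR adjusted p = 0.189), against -0.28 over the 6 libraries. With knockdown replicate 1 left out as well, Sdf2l1 was called, at 0.39 (edgeR adjusted p = 7.88e-04). Manf, a small BiP-binding protein that is partly secreted under stress, had 105.6, 85.0 and 96.0 CPM in knockdown libraries, against 304.8, 81.6 and 84.8 CPM in WT replicates 1, 2 and 3. It had a log2 fold change of 0.18 (edgeR adjusted p = 0.115) without WT replicate 1 and -0.72 over the 6 libraries.

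Of the disulfide isomerases, Pdia4 (ERp72) and Creld2 rose and Txndc5 fell. Pdia4 had 343.2, 356.7 and 341.4 CPM in knockdown replicates 1, 2 and 3, against 277.9, 283.9 and 283.3 CPM in WT replicates 1, 2 and 3. All knockdown libraries were above all WT libraries, and the log2 fold change was 0.28 (SE 0.0442, edgeR adjusted p = 9.04e-04) without WT replicate 1 and 0.30 (adjusted p = 0.316) over the 6 libraries. Creld2, known as a gene induced by ER stress, had 78.9, 85.9 and 88.4 CPM in knockdown libraries, against 173.2, 74.2 and 72.4 CPM in WT replicates 1, 2 and 3. Its log2 fold change was 0.19 (SE 0.0628, edgeR adjusted p = 0.0399) without WT replicate 1 and -0.34 over the 6 libraries. With all 6 libraries it was 0.22 under quality weights and 0.11 on both TPM scales, where the medians of all genes were 0.262 and 0.304. The call of Creld2 held in 8 of 15 alternative settings. It was lost on both TPM scales, with the GC trend removed, and with knockdown replicate 2 or 3 also left out. With WT replicate 2 or 3 also left out, 1 WT library remained, and Creld2 was at 0.20 or 0.17. Txndc5, a thioredoxin-like isomerase, had 205.6, 207.5 and 208.7 CPM in knockdown libraries, against 223.4, 236.0 and 230.5 CPM in WT replicates 1, 2 and 3. The groups did not overlap, and the log2 fold change was -0.19 (SE 0.0435, edgeR adjusted p = 0.00766) without WT replicate 1 and -0.15 (adjusted p = 0.545) over the 6 libraries. The call of Txndc5 was lost on both TPM scales. With WT replicate 2 or 3 also left out, 1 WT library remained, and Txndc5 was at -0.17 or -0.21.

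P4hb, protein disulfide isomerase itself, had the highest CPM of the 34 genes and was not called. P4hb had 2295.6, 2395.6 and 2298.6 CPM in knockdown libraries, against 2944.1, 2250.7 and 2246.7 CPM in WT replicates 1, 2 and 3, a log2 fold change of 0.04 (edgeR adjusted p = 0.556) without WT replicate 1 and -0.09 over the 6 libraries. Pdia3 (ERp57), which works with calreticulin and calnexin, was at 0.10 (edgeR adjusted p = 0.109) without WT replicate 1 and -0.18 over the 6 libraries. Pdia6, an isomerase known to act on IRE1, was at 0.02 and -0.33 in these comparisons. Both had higher CPM in WT replicate 1 than in any other library, with 1361.6 CPM for Pdia3 and 698.2 CPM for Pdia6 there.

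In ER-associated degradation 3 of 7 genes rose, 1 fell and 3 were not called. Syvn1 (Hrd1), the ubiquitin ligase of the complex, had 99.3, 94.9 and 100.7 CPM in knockdown replicates 1, 2 and 3, against 44.5, 67.2 and 58.3 CPM in WT replicates 1, 2 and 3. Each knockdown library was above every WT library, and the knockdown mean was 156.7% of the mean of WT replicates 2 and 3. The log2 fold change of Syvn1 (chr19:6046576-6053712 of GRCm38, plus strand) was 0.63 (SE 0.0673, edgeR adjusted p = 8.53e-05) without WT replicate 1 and 0.79 (adjusted p = 0.146) over the 6 libraries. Sel1l, the adaptor that stabilises this ligase, was not called, with 158.2, 143.8 and 137.4 CPM in knockdown libraries, against 78.8, 154.9 and 157.5 CPM in WT replicates 1, 2 and 3. Sel1l was at a log2 fold change of -0.11 (edgeR adjusted p = 0.165) without WT replicate 1 and 0.17 over the 6 libraries.

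Herpud1, a membrane protein that recruits partners to Hrd1, rose, and Edem1, which recognises glycoproteins marked for degradation, fell. Herpud1 had 66.8, 57.0 and 56.7 CPM in knockdown libraries, against 69.4, 46.1 and 47.5 CPM in WT replicates 1, 2 and 3. Its log2 fold change was 0.34 (SE 0.0738, edgeR adjusted p = 0.00478) without WT replicate 1 and 0.15 (adjusted p = 0.72) over the 6 libraries, and WT replicate 1 was above all knockdown libraries. The call of Herpud1 was lost on both TPM scales. With WT replicate 2 also left out, 1 WT library remained, and Herpud1 was at 0.32. Edem1 had 80.9, 79.0 and 77.6 CPM in knockdown libraries, against 109.5, 121.8 and 117.0 CPM in WT replicates 1, 2 and 3. All knockdown libraries were below all WT libraries, and the log2 fold change was -0.61 (SE 0.0489, edgeR adjusted p = 1.65e-05) without WT replicate 1 and -0.55 (adjusted p = 0.139) over the 6 libraries. In TPM the call of Edem1 was lost and the groups overlapped, with 21.9, 23.7 and 31.9 in knockdown libraries, against 28.7, 38.7 and 30.5 in WT replicates 1, 2 and 3.

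The derlins, which help to move chains out of the ER, differed in level and in change. Derl3 had 1.3, 1.14 and 1.58 CPM in knockdown replicates 1, 2 and 3, against 0.545, 0.266 and 0.551 CPM in WT replicates 1, 2 and 3. These values rest on 31, 31 and 43 expected counts in knockdown libraries and 10, 6 and 17 in WT libraries, the fewest of the 34 genes. The groups did not overlap, and the log2 fold change was 1.65 (SE 0.429, edgeR adjusted p = 0.0129) without WT replicate 1 and 1.55 (adjusted p = 0.157) over the 6 libraries. With WT replicate 2 also left out, 1 WT library remained, and Derl3 was at 1.26. Derl1 and Derl2 were not called, at log2 fold changes of -0.01 and -0.05 without WT replicate 1 and -0.20 and -0.35 over the 6 libraries. Derl1 had 114.8, 105.5 and 101.4 CPM in knockdown libraries, against 157.4, 114.0 and 99.5 CPM in WT replicates 1, 2 and 3.

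At the translocon, Sec61b rose and Sec63 fell against WT replicates 2 and 3, while the channel subunit Sec61a1 was not called. Sec61b, a small subunit of the channel, had 43.6, 37.9 and 43.9 CPM in knockdown libraries, against 70.8, 23.1 and 20.1 CPM in WT replicates 1, 2 and 3. The log2 fold change was 0.94 (SE 0.0933, edgeR adjusted p = 5.55e-05) without WT replicate 1 and 0.14 (adjusted p = 0.896) over the 6 libraries, where WT replicate 1 exceeded every knockdown library. With each library's length trend removed, Sec61b was at 0.95 over the 6 libraries (edgeR adjusted p = 0.0292), and at 1.03 without WT replicate 1. Sec63, a J-domain protein that brings BiP to the channel, had 107.8, 104.5 and 100.5 CPM in knockdown libraries, against 131.5, 135.2 and 145.8 CPM in WT replicates 1, 2 and 3. The groups did not overlap, and the log2 fold change was -0.45 (SE 0.0518, edgeR adjusted p = 1.41e-04) without WT replicate 1 and -0.40 (adjusted p = 0.22) over the 6 libraries. The call of Sec63 was lost on both TPM scales. Sec61a1 had 396.8, 415.2 and 386.0 CPM in knockdown libraries, against 217.9, 409.0 and 406.0 CPM in WT replicates 1, 2 and 3, a log2 fold change of -0.04 without WT replicate 1 and 0.21 over the 6 libraries. Sec24d, which selects cargo for COPII vesicles, was at -0.16 (edgeR adjusted p = 0.0596) without WT replicate 1 and 0.14 over the 6 libraries.

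The sensors and the factor Xbp1 did not move together. Xbp1, the transcript that IRE1 splices, had 72.9, 67.3 and 63.3 CPM in knockdown replicates 1, 2 and 3, against 153.6, 88.4 and 87.0 CPM in WT replicates 1, 2 and 3. Each knockdown library was below every WT library, and the log2 fold change was -0.39 (SE 0.0594, edgeR adjusted p = 7.23e-04) without WT replicate 1 and -0.69 (adjusted p = 0.273) over the 6 libraries. Gene-level counts sum the spliced and unspliced forms of Xbp1, so the splicing was not measured. Ern1 (IRE1), the kinase and nuclease that splices it, had 153.5, 146.7 and 145.2 CPM in knockdown libraries, against 68.0, 149.0 and 156.8 CPM in WT replicates 1, 2 and 3. It was not called, at a log2 fold change of -0.06 (edgeR adjusted p = 0.375) without WT replicate 1 and 0.25 over the 6 libraries.

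Atf6b and Atf6, the paralogous membrane-bound factors, changed in opposite directions against WT replicates 2 and 3. Atf6b had 95.3, 93.8 and 92.9 CPM in knockdown libraries, against 26.4, 67.4 and 61.5 CPM in WT replicates 1, 2 and 3. All knockdown libraries were above all WT libraries, and the log2 fold change was 0.53 (SE 0.0561, edgeR adjusted p = 8.49e-05) without WT replicate 1 and 0.86 (adjusted p = 0.306) over the 6 libraries. With each library's trend with GC content removed, Atf6b was at 0.20 (edgeR adjusted p = 0.0128) without WT replicate 1. Over the 6 libraries, Atf6b was at 0.49 (edgeR adjusted p = 0.509) with this trend removed. Atf6 had 113.7, 109.5 and 109.2 CPM in knockdown libraries, against 57.3, 123.8 and 121.2 CPM in WT replicates 1, 2 and 3. It had a log2 fold change of -0.16 (SE 0.0469, edgeR adjusted p = 0.023) without WT replicate 1 and 0.14 over the 6 libraries. The call of Atf6 held in 5 of 15 alternative settings, the fewest of the 17 called genes.

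Levels between genes can be set side by side only per length, in TPM. In WT replicates 2 and 3, P4hb was the highest of the 34 genes with a mean of 1436.0 TPM, followed by Calr with 975.7, Hspa5 with 746.9, Canx with 538.1, Hsp90b1 with 526.7 and Pdia3 with 464.0 TPM. Canx and Hsp90b1 are not separable by their libraries, which were 521.3 and 554.9 TPM for Canx and 523.6 and 529.8 TPM for Hsp90b1. Ero1b with 9.22 TPM and Derl3 with 0.61 TPM were the lowest. In knockdown libraries the means were 1460.1 TPM for P4hb, 795.7 for Hspa5, 617.4 for Calr, 561.2 for Canx, 553.2 for Hsp90b1 and 505.5 for Pdia3. Hspa5 thus stood above Calr in the knockdown libraries, with 754.7, 815.9 and 816.4 TPM for Hspa5 and 555.0, 642.6 and 654.8 TPM for Calr, and below it in each WT library.

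**Figure D3:**
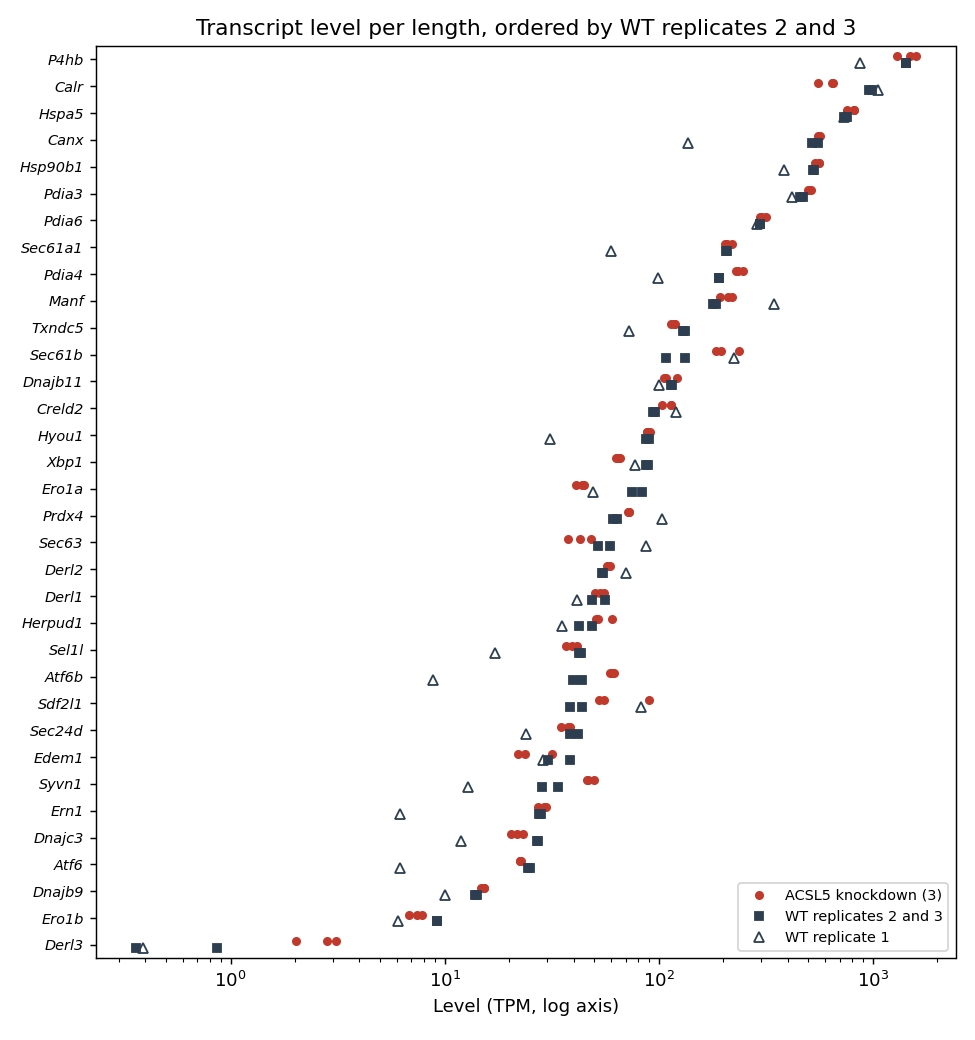
Level of each ER gene in TPM (horizontal log axis), with genes ordered by the mean of WT replicates 2 and 3. Circles are ACSL5 knockdown libraries, squares WT replicates 2 and 3 and triangles WT replicate 1; levels run from 1436.0 TPM for P4hb to 0.61 TPM for Derl3 in WT replicates 2 and 3.

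The 10 genes with an ERSE match went both ways against WT replicates 2 and 3. Of these, Hspa5, Creld2, Syvn1 and Derl3 were higher, Dnajc3, Calr and Ero1b were lower, and Hsp90b1, Canx and Pdia6 were not called, with a median log2 fold change of 0.03. The 6 other tested genes with an ERSE match in the window held 0 that rose and 3 that fell, with a median of -0.16. Among all genes tested in this comparison, 16.3% were higher and 18.0% lower. Herpud1, with the ERSE-II match, rose, and Dnajb11 was not called. Of the genes with a UPRE core, Txndc5 fell and Sec24d was not called.

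The wider pathway was read from 8 further lists of genes that are not among the 34, together 136 genes with 134 tested. Of these, 29 were higher and 41 lower in knockdown cells without WT replicate 1 (edgeR), with a median log2 fold change of -0.04, and -0.16 over the 6 libraries. Among all genes tested without WT replicate 1, 16.3% were higher and 18.0% lower, and 45.0% of genes at 10 CPM or more were called. In the authors' pathway column, 169 genes carry the term for protein processing in the ER, 28 of the 34 among them. Of the 156 tested, 31 were higher and 47 lower, with a median of -0.05, and -0.09 over the 6 libraries.

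The list of the PERK arm with ATF4 and CHOP had 10 of 16 genes higher and 2 lower, with a median log2 fold change of 0.39 without WT replicate 1 and 0.11 over the 6 libraries. The shares among all genes tested without WT replicate 1 were 16.3% higher and 18.0% lower. With the GC trend removed 7 were higher and 3 lower, with a median of 0.21, where 32.6% of all genes were called. Bbc3, which encodes the pro-apoptotic protein PUMA, had 4.24, 3.06 and 2.54 CPM in knockdown libraries, against 0.6, 1.24 and 0.357 CPM in WT replicates 1, 2 and 3, a log2 fold change of 2.08 (edgeR adjusted p = 0.0136) without WT replicate 1. It was 3.16 with WT replicate 2 also left out and 1.38 with WT replicate 3 also left out, each with 1 WT library remaining. Atf3, a stress-induced transcription factor, was at 1.17 (edgeR adjusted p = 0.00129) and lost its call on log2(TPM + 1), at 0.72, and on log2(TPM + 0.1), at 0.85. Both genes were above every WT library in CPM. Eif2ak3 (PERK), the sensor of this arm, fell, with 31.2, 30.5 and 29.7 CPM in knockdown libraries, against 23.2, 44.9 and 46.1 CPM in WT replicates 1, 2 and 3. Its log2 fold change was -0.59 (edgeR adjusted p = 8.71e-05) without WT replicate 1 and -0.32 over the 6 libraries. Cebpg, a partner of ATF4, was at -0.49 and lost its call on both TPM scales.

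The fold changes of the remaining lists are those without WT replicate 1 unless stated. Their counts stand beside 16.3% higher and 18.0% lower among all genes tested, and 32.6% called with the GC trend removed. Of 15 COPII and ER exit genes, 0 were higher and 7 lower, with a median log2 fold change of -0.13, and -0.05 over the 6 libraries. With the GC trend removed 1 was higher and 5 lower. Sar1b, the GTPase that starts coat assembly, was at -0.76. The coat subunit Sec31a was at -0.34 and lost its call on both TPM scales, at -0.05. Of 19 translocon, signal sequence and SRP genes, 2 were higher and 8 lower, with a median of -0.08, and -0.41 over the 6 libraries. With the GC trend removed 4 were higher and 3 lower. Srprb, a subunit of the SRP receptor, was at 0.28, Spcs3, a subunit of signal peptidase, at -0.34 (-0.19 with the GC trend removed) and Srp14 at -0.32. Ssr2 was at 0.18, at -0.41 over the 6 libraries, and lost its call with the GC trend removed, at 0.08. Its call was also lost on both TPM scales and with knockdown replicate 2 or 3 left out. Of 15 genes of N-glycan transfer and trimming, 1 was higher and 3 lower, with a median of -0.05 in both comparisons. The oligosaccharyltransferase subunits Rpn1, Ost4 and Stt3b were at 0.26, -0.67 and -0.25, and Rpn1 lost its call on both TPM scales, at 0.06.

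Of 23 tested genes among the other foldases and cochaperones, 4 were higher and 8 lower, with a median log2 fold change of -0.13, and -0.29 over the 6 libraries. Serpinh1, the collagen chaperone HSP47, was at 0.59, Dnajc10, a J-domain reductase of the ER, at -0.66, and Gpx8, an ER peroxidase, at -0.89. Fkbp2, a prolyl isomerase, was at 0.36, at -0.10 with the GC trend removed and at -0.56 over the 6 libraries. Of 20 other degradation genes, 8 were higher and 4 lower, with a median of 0.03, and 0.02 over the 6 libraries. The deubiquitinase Yod1 was at 0.72 (0.78 over the 6 libraries). Selenos was at 0.44, and at -0.17 over the 6 libraries. Svip was at -0.51 and lost its call with the GC trend removed, at -0.38. Its call was also lost on both TPM scales and with knockdown replicate 3 left out. The lectin Erlec1 was at -0.35, and at -0.21 with the GC trend removed, and lost its call on both TPM scales.

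Of 19 further regulators, 2 were higher and 8 lower, with a median log2 fold change of -0.06, and -0.09 over the 6 libraries. Traf2, an adaptor of IRE1, was at 0.34, Nfyc, a subunit of the factor that binds CCAAT, at 0.22, Ern2 at -1.25 and Creb3l1 at -0.79. Each of these 4 lost its call in some settings without WT replicate 1. Traf2, Nfyc and Creb3l1 lost it on both TPM scales. Nfyc also lost it with knockdown replicate 2 or 3 left out, and Creb3l1 with knockdown replicate 3 left out. For Ern2 it was lost with knockdown replicate 3 left out and with the replicate block. Ern2 was at a low level, with 0.503, 0.81 and 0.479 CPM in knockdown libraries. WT replicates 1, 2 and 3 had 0.109, 1.51 and 1.33 CPM, so that WT replicate 1 was below every knockdown library. Over the 6 libraries Ern2 was at -0.74. With WT replicate 2 or 3 also left out, 1 WT library remained, and Ern2 was at -1.16 or -1.34. Of 7 transcripts known in mouse cells as substrates of IRE1 cleavage, 2 were higher (Pdgfrb at 0.73 and Scara3 at 0.33) and 1 was lower (Sparc at -0.39), with a median of 0.03, and 0.18 over the 6 libraries. With the GC trend removed 1 was higher and 3 were lower, with a median of -0.18, and Scara3 lost its call, at 0.23. The call of Scara3 was also lost on both TPM scales and with knockdown replicate 2 or 3 left out.

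GC content moved with the fold changes. Across the 34 genes, the Spearman correlation of the log2 fold change without WT replicate 1 with the GC content of the transcript was 0.47, and across 14591 genes tested it was 0.32. Over the 6 libraries these values were 0.38 and 0.21. With transcript length it was -0.5 across the 34 genes and -0.08 across 15152 genes tested, while over the 6 libraries it was 0.17 and 0.32. These are correlations across genes of the same libraries, and genes are not independent replicates. The highest fold changes of the 34 belonged to GC-rich transcripts, Derl3 with 57.3%, Sec61b with 56.3% and Sdf2l1 with 56.7% GC. The lowest was that of Ero1a, with 41.6% GC. Edem1 and Calr, the next lowest, had 46.2% and 50% GC. Dnajb9, with the lowest GC content of 40.6%, was at 0.07, and Atf6b, with the highest of 60.3%, at 0.53. With each library's smooth trend with GC content removed, 11 of the 34 genes were higher and 8 lower, where 32.6% of all genes were called. Of the 17 calls, 15 were made in both ways with the same direction, and Creld2 and Atf6 were not. Hsp90b1, Canx, Pdia3 and Prdx4 were called higher once the trend was removed, at 0.17, 0.15, 0.17 and 0.24. The part of GC content in these fold changes was not tested.

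**Figure D4:**
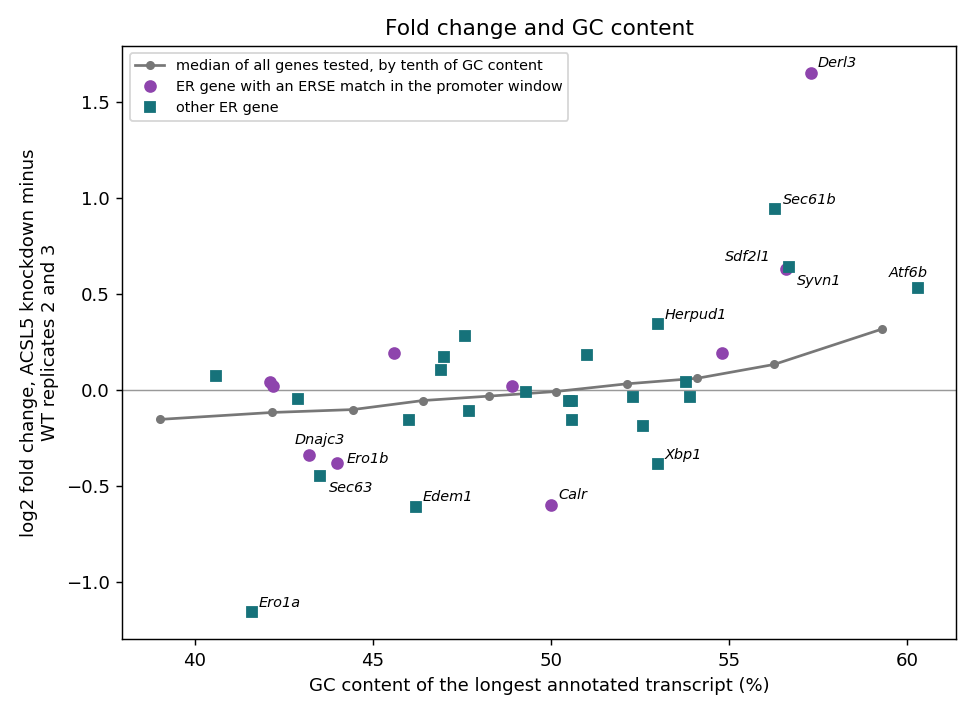
Log2 fold change of each ER gene, ACSL5 knockdown minus WT replicates 2 and 3 (vertical axis), by the GC content of its longest annotated transcript in percent (horizontal axis). Circles are genes with an ERSE match in the promoter window and squares the other ER genes. Among the squares, Sec61a1, Atf6, Derl1, Manf and Hyou1 had no promoter window to search. The line joins the medians of all genes tested in bins of equal gene number by GC content. Ero1a, Calr and Edem1 lie below the line and Derl3, Sec61b and Syvn1 above it.

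The 3′ UTRs of 5 of the 34 genes held GAACTAC or AACTACA, sequences of 7 bases that were found earlier on these same fold changes and are no independent support. The coding sequence of Acsl5 holds GAACTAC in 2 copies and AACTACA in 1. The sites are shown as description only, and they are printed in the sense of the transcript with 8 flanking bases and the match in capitals (GRCm38).
Ero1a: tctgagctGAACTACttactata (chr14:45284875-45284897, minus strand)
Calr: gagtgtaaGAACTACAaacaaaat (chr8:84842118-84842141, minus strand)
Dnajc3: tacttatgGAACTACtgatgctg (chr14:118979293-118979315, plus strand)
Sec63: aagacagtAACTACAgcatacaa (chr10:42829863-42829885, plus strand)
Canx: tagggtccAACTACAggatagat (chr11:50295198-50295220, minus strand)
Calr holds both sequences in overlap. Without WT replicate 1, Ero1a, Calr, Dnajc3 and Sec63 were lower and Canx was not called. Of the 29 ER genes with neither sequence, 5 were lower and 8 higher. Among all 12337 genes tested with an annotated 3′ UTR, 10.5% held a site, of which 38.6% were lower, against 18% of the others. The median log2 fold change was -0.16 with a site and 0.01 without. As the sequences were found on these fold changes, such differences are no test of them. The part of the sites in the fold changes was not tested.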

How the data were processed

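Total RNA of 6 libraries was sequenced on an Illumina platform, per the labels. Expected counts for each gene were deposited by the authors, and between 10.1% and 13% of a library's values were not whole. The authors also deposited TPM values, which are scaled by transcript length and library. Tools named in the submitters' processing notes are fastp, HISAT2, StringTie and DESeq2, with no version. The notes give human builds, but the identifiers are mouse Ensembl ones. Strandedness is not given in the sources used here, so reads of overlapping genes on opposite strands cannot be told apart.

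Expected counts were rounded, filtered with filterByExpr and scaled by TMM. Groups were compared in edgeR 4.0.16 (R 4.3.3; quasi-likelihood F test, two-sided, robust), with Benjamini-Hochberg adjustment over all genes tested and a threshold of 0.05. Fits used all 6 libraries, or 5 without WT replicate 1. The fits were run on simulated counts with 200 genes changed by 1 log2 unit. All 200 were recovered with 6 and with 5 libraries, with 6 and 10 false calls. The simulation held no outlying library and no GC or length trend, so it cannot show how the fits behave with WT replicate 1. The p-values measure the spread between libraries, which may be technical.

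Alternatives were DESeq2 1.42.0 and its size factors, library totals, no filter, limma 3.58.1 on log2(TPM + 1) or log2(TPM + 0.1) where either group averaged 1 TPM or more, removal of GC or length trends (lowess, span 0.3), the replicate block, and leaving out each library. Quality weights per library were added after the data were seen. The genes and all lists were chosen with earlier results of these data known. All 34 genes are named, and of each further list up to 2 higher and 2 lower called genes with the largest log2 fold change without WT replicate 1. Gene positions, GC content and 3′ UTRs came from GENCODE M21 on GRCm38, and promoter windows from RefSeq. The 2 columns of group means in each table were not used. A further marker list is not reported here.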

Additional observations from a re-analysis of the deposited data

How the results depend on the processing

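Over the 6 libraries, the count of genes called was 0, and it was 1 with library totals, 4 with no filter, 1127 with DESeq2, 3 with the GC trend removed, 930 with the length trend removed and 5937 with quality weights. Of the 34 ER genes 0 were called, and 8 were with DESeq2, 5 with the length trend removed and 16 with quality weights. The 5 were Calr and Ero1a, which were lower, and Syvn1, Derl3 and Sec61b, which were higher. Leaving out each library in turn gave between 0 and 5193 genes and between 0 and 17 ER genes, the highest without WT replicate 1. Without WT replicate 1, 5193 genes and 17 ER genes were called. There were 2467 genes and 10 ER genes on log2(TPM + 1), and 2569 and 10 on log2(TPM + 0.1). Leaving out a further library gave between 2599 and 6188 genes and between 11 and 20 ER genes. The lowest of these were 2599 genes without WT replicate 3, and 3124 genes and 11 ER genes without WT replicate 2. Dnajc3, Calr, Pdia4, Ero1a, Syvn1, Sec61b, Atf6b and Xbp1 kept their call in all 15 settings tried there. Hsp90b1, Sdf2l1, Manf, Canx, Pdia3, Prdx4 and Sel1l, not called there, were called in at least 1 of these settings. Over the 6 libraries the median of all genes was 0.085 with library totals and 0.262 and 0.304 on the TPM scales, against -0.020. Without WT replicate 1, 1459 genes were higher and 1008 lower on log2(TPM + 1).

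Same-numbered libraries had correlations of their deviations from the group means of -0.14, 0.0517 and -0.221. Differently numbered ones had values between -0.227 and 0.236. With WT replicate 1 far from the other WT libraries, these correlations cannot decide whether the numbers mark pairs, and the labels do not say. With the replicate number as a block, 0 genes and 0 ER genes were called over the 6 libraries, and 5753 genes and 19 ER genes without WT replicate 1.

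Without WT replicate 1, signs turned in genes that were not called and in Fkbp2. Hyou1 was at 0.0013 with the length trend removed. Canx was at -0.0034 with the block and at -0.0049 without WT replicate 2. P4hb was at -0.02 with the GC trend removed. Derl1 was at 0.0031 with DESeq2's size factors, 0.0032 with DESeq2, 0.01 with no filter, and 0.03 with library totals, on both TPM scales and with the GC trend removed. Leaving out a further library put Derl1 between -0.11 and 0.09 and Canx between -0.0049 and 0.04. Derl2 was at 0.08 on log2(TPM + 1) and with the GC trend removed, and at 0.09 on log2(TPM + 0.1). Sec61a1 was at 0.02 on both TPM scales. Ern1 was at 0.03 and 0.04 on the TPM scales and at 0.02 with the length trend removed. Fkbp2, called at 0.36, was at -0.10 with the GC trend removed. Over the 6 libraries, Hspa5 was at 0.01 with library totals, 0.10 on both TPM scales and 0.20 with quality weights, and leaving out a library put it between -0.28 and 0.19. Creld2 was at 0.11 on both TPM scales and 0.22 with quality weights, and between -0.56 and 0.19 with a library left out. Dnajc3 was at 0.07 and 0.08 and Txndc5 at 0.12 on the TPM scales. Sec61b was at -0.11 without WT replicate 2, -0.18 without WT replicate 3 and 0.94 without WT replicate 1. Atf6 was at -0.03 with the length trend removed and -0.15 with quality weights, and between -0.16 without WT replicate 1 and 0.32 without WT replicate 2. The cause of these changes was not tested. Derl3 is limited by its depth.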
